A study of Mus musculus with 2 samples.

Results

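The families described here are the transcription factor genes that pattern the embryo: the Hox genes of the 4 clusters (Hoxa, Hoxb, Hoxc and Hoxd) and the Pax, Dlx, Lhx, Nkx, Sox, Tbx, Gata, Neurod and sine oculis homeobox genes. Members were taken by symbol alone, as protein-coding genes whose symbol is one of these 13 family names followed by a number, which gave 124 of 21883 protein-coding genes of the RefSeq table on chromosomes 1 to 19, X and Y. Only part of them are homeobox genes: Sox, Tbx, Gata and Neurod proteins bind DNA through other domains. The data are CUT&Tag profiles of histone H4 acetylated at lysine 16 (H4K16ac), a method in which an antibody guides a transposase that inserts sequencing adapters next to the modified histone. Both libraries came from primary mouse macrophages grown out of bone marrow with M-CSF (20 ng/ml) and exposed for 2 h to R848, an agonist of Toll-like receptor 7, at 100 ng/ml. One library was labelled WT for genotype and the other KAT8-cKO (KAT8-deficient), with 1 library per group. KAT8 is the enzyme that deposits most H4K16ac. These libraries are called wild type and knockout below. The sources used here do not give the driver of the knockout, the age of the mice or the completeness of deletion. A peak list does not measure whether Kat8 was deleted. With 1 library per genotype, no difference between the lists could be set against variation between animals, and no test was made.

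Homeobox, SOX, T-box and GATA factors set the body plan and the identity of organs, and most of their genes are kept silent in adult cells of other lineages. Polycomb complexes, which place repressive marks on histones, hold many of them off, and their start regions are typically rich in CG dinucleotides. A small number of members work in blood: GATA factors direct erythroid, mast and T cell fates, Hoxa9 and its neighbours maintain blood progenitors, Pax5 commits B cells and Tbx21 encodes T-bet, a factor of T helper and natural killer cells. H4K16 acetylation loosens the packing of nucleosomes and is found at active genes. Whether any member was transcribed in these macrophages was not measured here.

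A gene counted as marked when any peak reached into the 1 kb around one of its annotated ends. The promoters of 4 members are shown because the position of their peaks is a result below. Each sequence is the RefSeq promoter of GRCm38.p6, the assembly behind mm10, from 250 bases before to 50 bases after an annotated start, written 5′ to 3′ along the gene. Hoxb1, a hindbrain patterning gene with a peak in both lists, was the single marked member with a promoter entry whose peak touched that promoter. Its promoter lies at chr11:96365508-96365807 on the plus strand. The capitals mark the 32 bases covered by the wild-type peak, which runs from 96365776 to 96366307. Between the shown window and the knockout peak lay 5 bases.

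Hoxb1: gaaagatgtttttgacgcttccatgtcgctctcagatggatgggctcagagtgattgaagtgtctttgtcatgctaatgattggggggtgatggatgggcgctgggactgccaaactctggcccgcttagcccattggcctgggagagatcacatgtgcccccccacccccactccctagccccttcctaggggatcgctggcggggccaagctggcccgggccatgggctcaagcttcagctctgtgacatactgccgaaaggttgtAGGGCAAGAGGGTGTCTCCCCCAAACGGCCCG

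The motif TGATNNAT, a composite site for PBX and HOX proteins through which HOXB1 is known to act on its own gene, was searched on both strands. It occurred at 1 position of the Hoxb1 promoter, outside the capitals, and in 8.85% of 32851 promoters of the same length. It was in none of the promoters of Hoxb4, Gata2 and Sox4 shown next. The search does not show binding.

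In these 3 promoters of blood-active genes the capitals mark CG dinucleotides. Hoxb4 lies at chr11:96318017-96318316 on the plus strand, Gata2 at chr6:88193641-88193940 on the plus strand and Sox4 at chr13:28953650-28953949 on the minus strand. Gata2 has a second promoter entry further downstream, which is not shown. They hold 14, 32 and 12 CG dinucleotides.

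Hoxb4: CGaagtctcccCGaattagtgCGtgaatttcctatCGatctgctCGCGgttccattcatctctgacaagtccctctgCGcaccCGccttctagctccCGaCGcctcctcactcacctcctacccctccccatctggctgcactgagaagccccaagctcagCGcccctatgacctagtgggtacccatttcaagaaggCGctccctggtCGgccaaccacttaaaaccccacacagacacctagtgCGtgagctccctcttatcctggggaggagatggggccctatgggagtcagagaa

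Gata2: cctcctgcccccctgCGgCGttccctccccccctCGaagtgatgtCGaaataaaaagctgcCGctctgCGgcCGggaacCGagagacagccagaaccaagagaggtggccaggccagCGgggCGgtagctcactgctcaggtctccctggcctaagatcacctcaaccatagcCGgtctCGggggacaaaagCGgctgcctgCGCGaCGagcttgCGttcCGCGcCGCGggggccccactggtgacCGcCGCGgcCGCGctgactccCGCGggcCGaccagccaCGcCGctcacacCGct

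Sox4: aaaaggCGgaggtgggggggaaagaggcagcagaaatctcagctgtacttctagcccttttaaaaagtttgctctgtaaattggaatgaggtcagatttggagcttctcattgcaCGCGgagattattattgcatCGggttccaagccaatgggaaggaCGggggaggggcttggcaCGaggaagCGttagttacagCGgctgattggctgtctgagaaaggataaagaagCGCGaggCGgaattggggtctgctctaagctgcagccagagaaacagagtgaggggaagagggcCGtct

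The gap between the window shown and the knockout peak downstream of it was 10 bases at Hoxb4, 259 bases at Gata2 and 340 bases at Sox4. Promoter entries were present for 84 of the 124 members, and for 16 of 28 members marked in wild type and 13 of 20 marked in the knockout list. These shares are under 80%, so a comparison of promoter coverage or base composition between the members and other genes is void and is not given.

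Few of the developmental genes carried an H4K16ac peak. In wild type 28 of 124 were marked, or 22.6% (95% Wilson interval 16.1 to 30.7), against 46.8% of all protein-coding genes. The knockout list marked 20, or 16.1% (10.7 to 23.6), against 43.3% of all genes. A peak in both lists was present at 8 members, against 35.8% of all genes. Peaks in wild type only were found at 20 of 124 members, a share somewhat above the 11.1% of all genes. Peaks in the knockout list only were found at 12 of 124, also somewhat above the 7.52% of all genes. The remaining 84 had no peak at an end in either list. These intervals cover counting error over genes only, and neighbouring Hox genes are not independent of each other.

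The members' peaks were also weak. The strength of a peak is given as the fold at its summit over the peak caller's background, and as −log10 of its q-value. The strongest member peaks in wild type had a median fold of 2.93 (range 2.35 to 4.11), while all marked genes had a median of 3.42. In the knockout list the members' median was 2.81 (2.18 to 3.63) and that of all marked genes 3.13. With a q-value under 0.05, 13 members were marked in wild type, against 36.8% of all genes, and 10 in the knockout list, against 31.3% of all genes. No member reached a −log10 q of 5 in either list, whereas 12.4% of all genes did in wild type and 5.99% in the knockout list. This was not particular to the members: none of the 47 other homeobox genes, 21 bHLH lineage genes or 14 macrophage markers counted below reached it. The highest values were a −log10 q of 3.91 in wild type, at Hoxa4, and 2.91 in the knockout list, at Hoxa9. Member peaks were narrow too: the median width was 287 bp in wild type and 267 bp in the knockout list, against 498 bp and 422 bp over all marked genes.

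**Figure D1:**
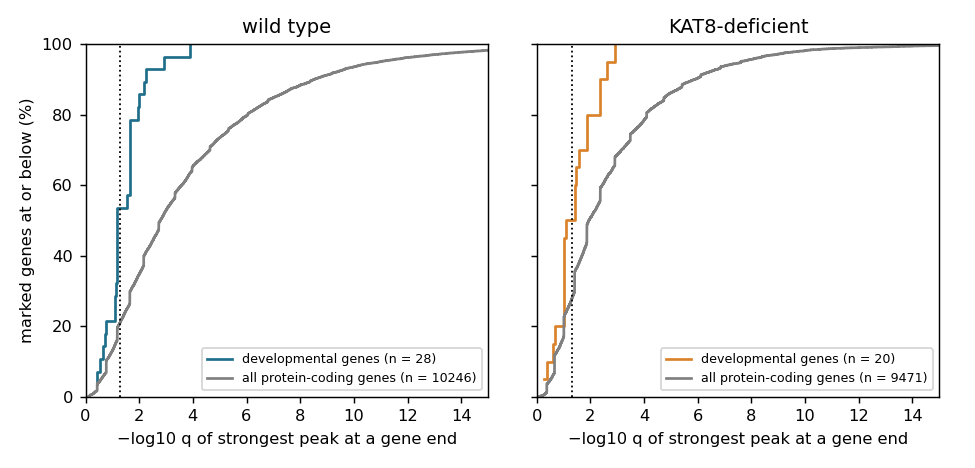
Cumulative share of marked genes (vertical axis, %) by the −log10 q of the strongest peak at a gene end (horizontal axis), for developmental genes (coloured) and all protein-coding genes (grey), wild type on the left and KAT8-deficient (knockout) on the right. The dotted line is a q-value of 0.05, and the developmental genes end at 3.91 and 2.91 while the grey curves go on.

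The weak peaks fell on a stepped scale, so small differences between members cannot be read. In wild type 5 members had exactly a fold of 2.93 with a −log10 q of 1.18, a pair of values shared by 4450 of the 58229 wild-type peaks. Another 5 had 3.18 with 1.65, shared by 3355 peaks. In the knockout list 5 members had 2.78 with 1.01, shared by 4984 of 55149 peaks.

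Most members' windows met no window of another gene, and the marked share of such members was below that of all such genes too. Windows that met no end window of another protein-coding gene were held by 101 members (81.5%) and by 67.8% of all genes. Gene bodies were not considered: Hoxa4 and Hoxb4 are among the 101, yet lie inside the annotated spans of Hoxa3 and Hoxb3. Of those 101, the wild-type list marked 24 (23.8%) and the knockout list 19 (18.8%), against 37.4% and 34.8% of the 14836 such genes in all. Among the 23 members whose windows met a window of another gene, the wild-type list marked 4 (17.4%) and the knockout list 1 (4.35%). Of the 7047 such genes in all, 66.7% and 61.2% were marked. Of these 23, 10 met a window of a gene outside the families and the rest met windows of other members alone.

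Peaks at the members seldom covered the end of the gene. In wild type 2 of 28 marked members had a peak across an annotated end (7.14%, 95% Wilson interval 1.98 to 22.6), Lhx9 and Tbx3, against 60.6% of all 10246 marked genes. The knockout list had 1 of 20 (5%, 0.888 to 23.6), again Lhx9, against 51.0% of 9471. The edge of the nearest peak was a median of 327 bp from the gene end in wild type and 399 bp in the knockout list, against 0 bp over all marked genes in both. The summit of the strongest peak lay inside the gene at 19 of 28 wild-type (67.9%) and 15 of 20 knockout members (75%), near the 58.6% and 61.4% of all marked genes.

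The families are too small to be ordered by their shares. Pax genes, master regulators of eye, kidney, muscle and B cell fate, had no peak at an end in either list (0 of 9), and nor did the neuronal Neurod genes (0 of 4). Dlx genes, which pattern forebrain and jaw, and Lhx genes, LIM homeobox regulators of neurons and limb, were marked at 3 of 6 and 4 of 8 in wild type and at 2 of 6 and 2 of 8 in the knockout list. Hox genes together were marked at 8 of 39 in wild type and 4 of 39 in the knockout list. Sox genes were marked at 5 of 19 in each list, Tbx genes at 4 and 2 of 13, Nkx genes at 3 and 2 of 14 and sine oculis homeobox genes at 1 of 6 in each. Gata genes were marked at 0 of 6 in wild type and 2 of 6 in the knockout list. The Wilson intervals of all 13 families overlapped one another in each list, which does not show that their shares are alike.

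**Figure D2:**
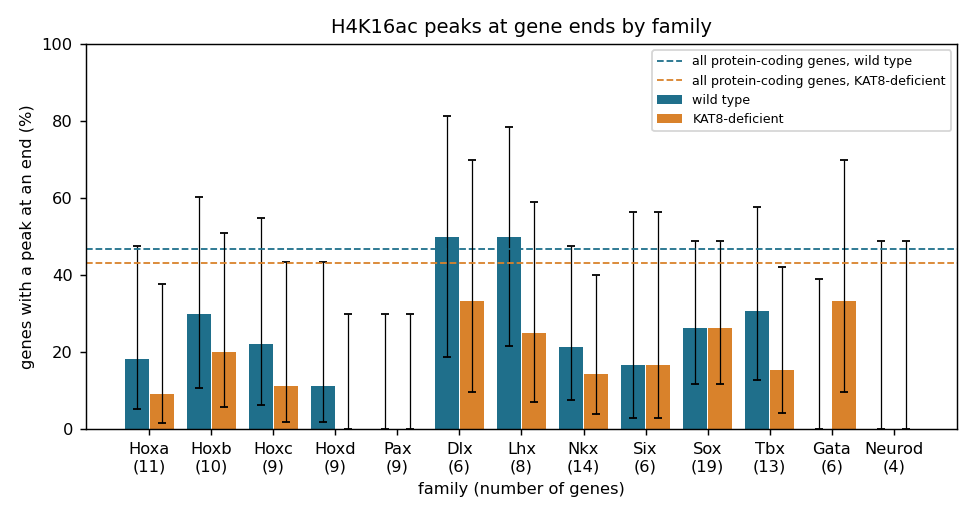
Share of each family's genes with an H4K16ac peak within 1 kb of a gene end (vertical axis, %), wild type in blue and KAT8-deficient (knockout) in orange, with 95% Wilson intervals as error bars and family sizes in brackets. Dashed lines give all protein-coding genes (46.8% and 43.3%), and Pax and Neurod have no marked gene.

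In the Hoxa cluster on chromosome 6, which patterns limb, gut and reproductive tract and is active in blood progenitors, the marked genes differed between the lists. Hoxa4 (52189682 to 52191703) had the strongest wild-type peak of all members, at 52191959 to 52192395, with a fold of 4.11, and the nearest knockout peak was 29269 bp away. The opposite held at Hoxa9 (52223097 to 52227370), a regulator of blood stem cells that is raised in many leukaemias. Its knockout peak at 52221664 to 52222420 had a fold of 3.63 and a width of 757 bp, the strongest member peak of that list, and wild type had no peak at an end. This peak lay beyond the 3′ end of Hoxa9, which is read from the minus strand.

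Of the Hoxb genes on chromosome 11, Hoxb1 and Hoxb4 were marked in both lists. Hoxb1 had a wild-type fold of 3.18 and a knockout fold of 3.20, with overlapping peaks and a q-value under 0.05 in both. Hoxb4, which expands blood stem cells when raised, had a wild-type fold of 2.52 and a knockout fold of 2.78. Neither peak reached a q-value under 0.05, and they lay side by side, 82 bp apart, inside the gene. Hoxb13, a posterior gene active in prostate, had a pair of wild-type peaks (folds of 3.05 and 3.29) and none in the knockout list.

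Hoxc10 and Hoxc13 on chromosome 15 and Hoxd12 on chromosome 2 were marked in the other clusters. Hoxc10, a gene of lumbar motor neurons and hindlimb, had 2 peaks in each list, with best folds of 2.93 in wild type and 3.42 in the knockout list, and 1 peak of each list overlapped the other list. Hoxc13, needed for hair and nails, had a wild-type fold of 3.18, and Hoxd12, a digit gene, 3.42. Both lacked a knockout peak at an end.

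**Figure D3:**
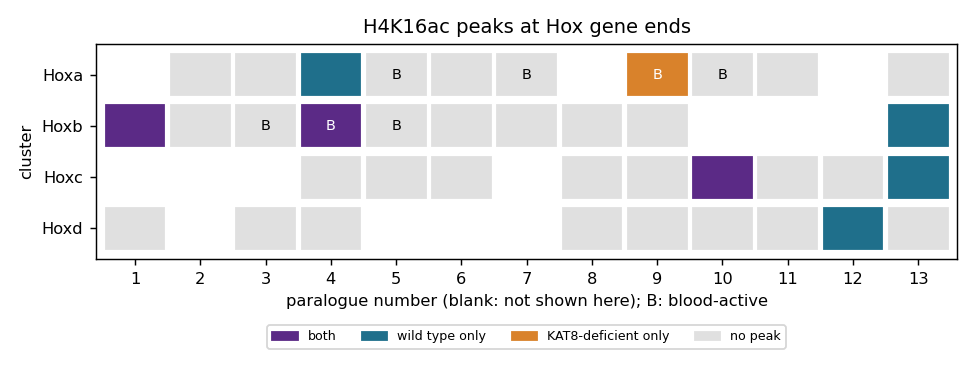
Hox genes by cluster (rows) and paralogue number (columns), coloured by which of the lists, if any, had a peak at a gene end, with B for genes on the blood-active list. The 3 genes marked in both lists are Hoxb1, Hoxb4 and Hoxc10, and genes not shown are blank.

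The clusters themselves were not empty of peaks. Together the 4 clusters span 492 kb and held 14 wild-type peaks, or 2.84 per 100 kb, against 2.14 per 100 kb over the chromosomes. The knockout list had 8 there, or 1.63 per 100 kb, against 2.03. Peaks covered 0.861% and 0.609% of the clusters and 0.776% and 0.697% of the chromosomes. By cluster the wild-type counts were 4 in Hoxa, 6 in Hoxb, 3 in Hoxc and 1 in Hoxd, and the knockout counts 1, 5, 2 and 0. Of the 14 wild-type peaks 2 were overlapped by a knockout peak, against 33.2% of all 58229 wild-type peaks. Of the 8 knockout peaks 2 were overlapped by a wild-type peak, against 35.6% of all 55149. The flanks of 100 kb on both sides of the clusters held 9 peaks in each list. Counts this small give no measure of a difference between the genotypes.

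Among the Dlx genes, Dlx1 had a wild-type fold of 2.83, Dlx5 2.44 and Dlx2 2.35, none with a q-value under 0.05. Dlx2 was also marked in the knockout list, at 2.78, by a peak that overlapped the wild-type one. Dlx4 was marked in the knockout list alone, at 2.43.

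Lhx9, a gene of the developing gonad, had folds of 3.18 and 3.20 with overlapping peaks across its annotated end, and with Hoxb1 it was 1 of the 2 members with a q-value under 0.05 in both lists. Lhx5 and Lhx2, forebrain regulators, had wild-type folds of 3.18 and 2.93, and Lhx6, an interneuron gene, 2.46. Lhx4, a pituitary gene, had a knockout fold of 2.78 and no wild-type peak at an end.

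Of the Nkx genes, Nkx1-2 was marked in both lists at folds of 2.93 and 2.32, by peaks 29 bp apart. The heart gene Nkx2-5 had a wild-type fold of 2.59 and Nkx2-9 of 2.69. Nkx2-3, needed for spleen and gut, had a knockout fold of 2.56. None of these 4 reached a q-value under 0.05. Six5, a sine oculis homeobox gene, had the lowest member fold of all, 2.18 in the knockout list.

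Sox18, a gene of blood vessel and lymphatic endothelium, had folds of 2.77 and 2.90 with overlapping peaks. Sox10, a neural crest gene, had 2.41 and 2.60 at opposite ends of the gene. Sox21 (3.18), Sox8 (2.73) and Sox15 (2.72) were marked in wild type only, although at Sox21 a knockout peak lay 349 bp from the wild-type one and 1117 bp from the gene end, just outside the window. Sox12 (3.24), Sox7 (2.99) and Sox4 (2.78) were marked in the knockout list only. The Sox15 peak also lay in the window of its neighbour Mpdu1, a gene outside the families that was marked in both lists.

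No Tbx gene was marked in both lists. Tbx10 (2.93), Tbx3 (2.93), Tbx2 (2.88) and Tbx6 (2.52) had wild-type peaks, and Tbx5 (2.99) and Tbx21 (2.78) knockout ones. Tbx6 forms paraxial mesoderm, and Tbx5 and Tbx3 pattern heart and limb. The Tbx10 peak also lay in the window of Nudt8, 409 bp from summit to gene end. Sox15 and Tbx10 were the 2 members whose wild-type peaks were counted for a gene outside the families too, and the knockout list had 0 such members.

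**Figure D4:**
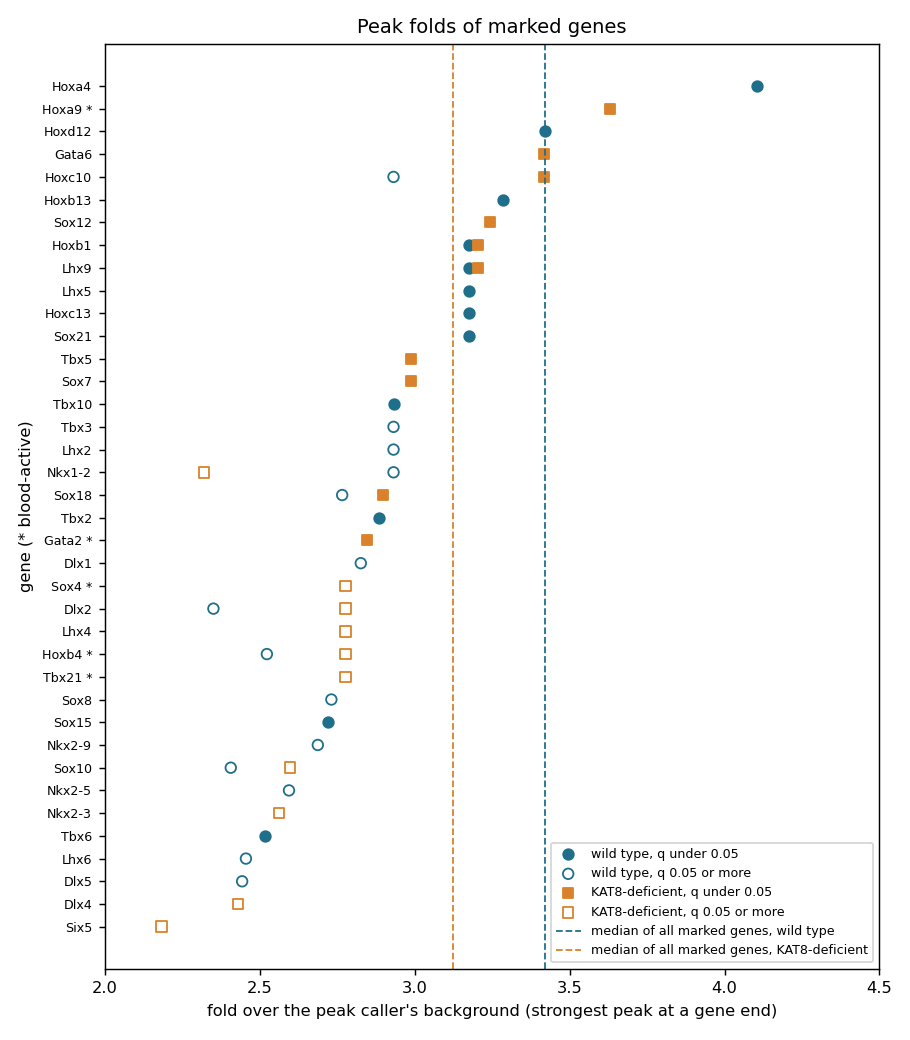
Fold of the strongest peak at a gene end (horizontal axis) for marked members (vertical axis), circles for wild type and squares for KAT8-deficient (knockout), filled where the q-value is under 0.05. Dashed lines are the medians of all marked genes (3.42 and 3.13), and an asterisk marks the blood-active list.

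Among the 13 blood-active members Hoxb4 alone was marked in both lists, and 4 more were marked in the knockout list. The list was set from known roles in blood rather than from values, but with earlier results of these data known. In wild type 1 of 13 was marked (7.69%, 95% Wilson interval 1.37 to 33.3), Hoxb4, against 27 of the 111 other members (24.3%, 17.3 to 33.1). In the knockout list 5 of 13 were marked (38.5%, 17.7 to 64.5), against 15 of 111 (13.5%, 8.36 to 21.1). The shares of all genes were 46.8% in wild type and 43.3% in the knockout list, so the blood-active share in the knockout list was near the background. The intervals of the groups overlapped in each list, and the difference between them was not tested. The 5 were Hoxa9, Gata2, Hoxb4, Sox4 and Tbx21. The Hoxa9 and Tbx21 peaks lay at the 3′ end of the gene, with summits 5132 bp and 16063 bp downstream of the annotated start. Gata2, needed for blood stem and mast cells, had a fold of 2.85 with a −log10 q of 1.47, and Hoxa9 3.63 with 2.91. The others all had a fold of 2.78 with a −log10 q of 1.01, short of a q-value of 0.05.

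The 8 blood-active members with no peak at an end were Gata1, Gata3, Hoxa5, Hoxa7, Hoxa10, Hoxb3, Hoxb5 and Pax5. At Pax5 the nearest peaks were 1229 bp from a gene end in wild type and 1489 bp in the knockout list, just outside the window. At Gata3, the master regulator of T helper 2 cells, they were 1225 bp and 7994 bp away. Gata1, the erythroid factor, lies on the X chromosome, with the nearest peaks 11023 bp and 11043 bp away. The other X-linked members, Sox3 and Tbx22, had no peak at an end either. The order of the groups in wild type turned with the window. With 3 kb, the wild-type list marked 6 of 13 blood-active members (46.2%) and 34 of the 111 others (30.6%), against 58.1% of all genes. The knockout list then marked 7 of 13 (53.8%) and 27 of 111 (24.3%), against 55.1% of all genes. Over gene bodies with 5 kb flanks the wild-type list marked 7 of 13 (53.8%) and 47 of 111 (42.3%), against 70.9% of all genes. By the same rule the knockout list marked 9 of 13 (69.2%) and 43 of 111 (38.7%), against 69% of all genes. A wider list of 25, which adds genes such as Gata6, Sox17 and Hoxb8, had 3 marked in wild type (12%) and 7 in the knockout list (28%), both below the shares of all genes. Gata6, an endoderm gene also needed by peritoneal macrophages, had 3 knockout peaks, the best with a fold of 3.42, and the nearest wild-type peak was 96746 bp from it.

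Members marked in one list were seldom marked in the other. Of the 28 wild-type members 8 (28.6%, 95% Wilson interval 15.3 to 47.1) had a knockout peak, against 76.4% of all genes marked in wild type. Among genes whose wild-type peak was no stronger than that of Hoxa4, 65.9% of 6509 had one. In the opposite direction 8 of 20 (40%, 21.9 to 61.3) had a wild-type peak, against 82.6% of all genes marked in the knockout list and 75.4% of 6433 no stronger than Hoxa9. Split by strength, the wild-type members with a q-value under 0.05 were shared at 2 of 13 (15.4%, 4.33 to 42.2), against 74.2% of 4324 genes in that range. Those above 0.05 were shared at 6 of 15 (40%, 19.8 to 64.3), against 49.5% of 2185. In the knockout list 4 of 10 members were shared in each strength class, against 83.4% of all genes with a q-value under 0.05 in that range and 63.9% of those above it.

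Counted as peaks, overlap was rarer still. The 28 wild-type members held 31 peaks, of which 5 (16.1%) were overlapped by a knockout peak, against 60.7% of the 11001 wild-type peaks at ends of protein-coding genes. The 20 knockout members held 23 peaks, 5 of them overlapped (21.7%), against 67.8% of 10131. The shares of all gene-end peaks cover every strength and width, with no limit to the members' range. The 5 genes with overlapping peaks were Lhx9, Hoxb1, Hoxc10, Dlx2 and Sox18. A q-value under 0.05 in wild type without any knockout peak at an end was found at 11 members, among them Hoxa4, Hoxb13, Hoxc13, Hoxd12, Lhx5, Sox15, Sox21, Tbx2, Tbx6 and Tbx10. The converse was found at 6: Hoxa9, Gata2, Gata6, Sox7, Sox12 and Tbx5. Both counts are the unshared members of the split by strength above, and were not made over all genes. There, 2 of 13 wild-type and 4 of 10 knockout members were shared, against 74.2% and 83.4% of all genes in that range. Whether the peaks of the unshared members would recur in another library of the same genotype was not tested.

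Lists of related genes were counted the same way. The shares of all genes to set beside them are 46.8% in wild type and 43.3% in the knockout list. Of 47 other homeobox genes the wild-type list marked 6 (12.8%) and the knockout list 11 (23.4%). Of 21 lineage genes of the bHLH class 3 (14.3%) and 5 (23.8%) were. Hhex, a homeobox gene of liver and blood, had the highest wild-type fold among these homeobox genes, 3.68, and was marked in both lists. Partners and regulators of the families formed other lists. Of 30 Polycomb genes the wild-type list marked 24 (80%) and the knockout list 19 (63.3%), among them Eed (4.69 and 4.38) and Ezh2 (4.15 and 3.84), core parts of the complex that methylates histone H3 at lysine 27. Of 13 genes of MLL and menin, which keep Hox genes on, 8 (61.5%) were marked in each list, including Kmt2a (3.75 and 2.97). Of 9 Hox cofactor genes 5 (55.6%) were marked in each. Pknox1 (7.41 and 3.98) and Pbx3 (6.91 and 3.84) led them, and Meis1 was marked in neither list.

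**Figure D5:**
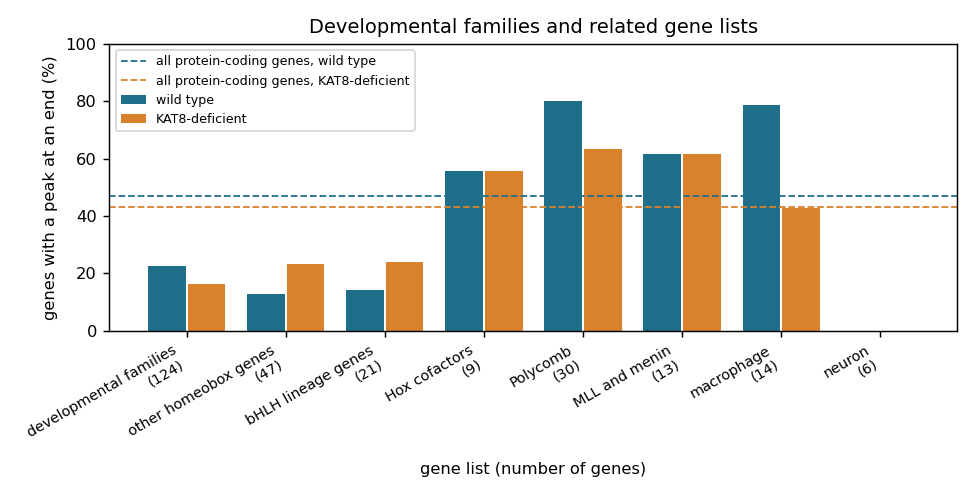
Share of genes with a peak at an end (vertical axis, %) in the developmental families and in related gene lists (horizontal axis, number of genes in brackets), wild type in blue and KAT8-deficient (knockout) in orange, dashed lines for all protein-coding genes. The families, the other homeobox genes and the bHLH genes lie below the lines, and Polycomb genes above them at 80% and 63.3%.

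Of 14 macrophage marker genes the wild-type list marked 11 (78.6%) and the knockout list 6 (42.9%), against 46.8% and 43.3% of all genes. Their median wild-type fold was 2.49, below that of the members. With a q-value under 0.05 only 4 of the 14 were marked in wild type, against 36.8% of all genes. In the knockout list 3 of the 14 were, against 31.3% of all genes. The wild-type share of these markers was thus above that of all genes only when weak peaks were counted. Of 6 neuron marker genes 0 were marked in either list, and of 7 fibroblast marker genes 2 were in wild type and 1 in the knockout list. T cell markers were marked at 3 and 1 of 8, B cell markers at 2 and 1 of 6 and erythroid and mast cell markers at 2 and 3 of 6. H4K16ac at gene ends is no measure of expression, so these counts do not settle which cells were present, and their part in the members' peaks was not tested.

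The members' share was below that of all genes with each other window and peak set as well. With windows of 500 bp 18 members were marked in wild type (41.7% of all genes) and 12 in the knockout list (37.6%). With 3 kb the counts were 40 (58.1%) and 34 (55.1%). Any peak in the gene body or its 5 kb flanks gave 54 (70.9%) and 52 (69%). Among the strongest 20000 peaks of each list 8 members were marked in each (33% and 28% of all genes). Counting summits in place of whole peaks gave 26 (44.9%) and 18 (41.5%).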

How the data were processed

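The material was 1 H4K16ac peak list per genotype. The submitters' processing notes name mm10 and, without saying what each did, MACS2 2.2.7.1, Bowtie 0.12.8 and DiffBind. The sources used here do not give calling settings, a control library or read depth. Each deposited peak carries a score, a fold over background, the −log10 p-value, the −log10 q-value and a summit offset. These are the peak caller's own, and fold and −log10 q were used only to describe, rank or filter peaks within a list. The lowest −log10 p was 2.01 in both deposited lists, and a q-value under 0.05 was reached by 46.9% of peaks in the one and 47.0% in the other.

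Gene positions came from the RefSeq table of GRCm38.p6, which carries no strand, so both gene ends were used. Strand came from the RefSeq promoter table where it had an entry. A peak counted if at least 1 bp of it lay in a window. A gene's value is that of its strongest peak by −log10 q. Shares carry 95% Wilson intervals. No test was possible with 1 library per group. The members, the gene lists and the rule for named genes were chosen with earlier results of these data known. Named genes are the 3 members with the highest wild-type fold per family, all blood-active members, members with a q-value under 0.05 in a single list and any with a −log10 q of at least 5. Other members and genes of the related lists (Hhex, Eed, Ezh2, Kmt2a, Pknox1, Pbx3 and Meis1) were named after their values were seen. The values of some members are not reported here. Overlap code was tested on simulated data against a direct search. Python 3.11.15, pandas 2.3.3 and scipy 1.17.1 were used. Alternatives covered window, peak strength, overlap rule and list.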

Additional observations from a re-analysis of the deposited data

How the results depend on the processing

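Of 58 recomputed counts 35 differed from the reported one by more than 1.5 times and 23 did not. Counts are given in the order wild type, knockout, both, wild type only, knockout only, blood-active in wild type and blood-active in the knockout list, against 28, 20, 8, 20, 12, 1 and 5. Windows of 500 bp moved those for wild type to 18, knockout to 12, both to 4 and blood-active to 0 and 3. Windows of 3 kb moved knockout to 34, both to 18 and blood-active in wild type to 6. Whole genes with 5 kb on both sides gave 54 in wild type, 52 in the knockout list, 31 in both, 21 in the knockout list only, and 7 and 9 blood-active. A q-value under 0.05 left 13, 10, 2 in both, 11 in wild type only, and 0 and 2 blood-active. A −log10 q of at least 5 left 0 in each of the 7 counts. The strongest 20000 peaks left 8, 8, 1 in both, 7 in each list only, and 0 and 2 blood-active. The wider blood-active list had 3 marked in wild type. In wild type the blood-active share was above that of the other members with 3 kb and gene-body windows and below it at 1 kb and 500 bp. Stricter thresholds leave fewer peaks and wider windows take in more, by construction. Using summits, or leaving out the 10 members whose windows met a window of a gene outside the families, moved no count by that much. The depth of the libraries is unknown, and a region without a peak is not shown to lack acetylation. No paired analysis was possible because each genotype has 1 library.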

Other observations

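Members far from any peak were not much more frequent than among all genes at 10000 bp, and less frequent at 50000 bp. No peak of either list came within 10000 bp of an end at 33 members (26.6%, against 21.9% of all genes), and none within 50000 bp at 6 (4.84%, against 8.85%): Hoxc4, Neurod1, Nkx6-1, Neurod6, Sox14 and Sox3. Sox3 was farthest, with its nearest peak 266475 bp away in wild type. The median distance from a gene end to the nearest peak was 8.40 kb in wild type and 9.58 kb in the knockout list over all members, and 1.40 kb and 1.95 kb over all genes. These genes were chosen after their values were seen.

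Peaks inside the Hox clusters but away from gene ends included a wild-type peak inside Hoxa10, a progenitor gene, 2751 bp from its nearer end, with a fold of 3.42. The interval between Hoxb13 and Hoxb9 held 1 peak of each list, both with a fold of 3.42, which did not overlap.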
